A study of Sus scrofa with 18 samples.

Results

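The 8 genes examined here are the chloride cotransporters SLC12A2, SLC12A5 and SLC12A7 and the kinases that act on them, WNK1, WNK2, WNK3, STK39 and OXSR1, chosen by gene symbol from the 31908 genes of the deposited gene table. All 8 were in the table and all 8 passed the filter on low counts, as did 16325 genes in all. The libraries were made from whole brains of untreated pig fetuses of both sexes, from Landrace x Large White gilts inseminated with LR-M6 semen, at gestation day (GD) 45, 60 or 90. Each of the 6 groups of sex and day held 3 fetuses, which gave 18 libraries. At every day the labels list 3 litter sizes, each with 1 female and 1 male, and fetuses of the same day and litter size were taken here as 1 of 9 litters. The labels do not name the dams, and a whole brain mixes all of its cell types.

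Chloride moves through GABA-A and glycine receptors in the direction set by its gradient across the membrane. NKCC1, the product of SLC12A2, carries sodium, potassium and chloride into cells, while KCC2, the product of SLC12A5, is found almost only in neurons and carries potassium and chloride out. As neurons mature KCC2 rises relative to NKCC1, and GABA turns from a depolarizing to a hyperpolarizing transmitter. KCC4, the product of SLC12A7, is a more widely distributed exporter. The WNK kinases respond to cell chloride and volume by phosphorylating SPAK (STK39) and OSR1 (OXSR1), which in turn phosphorylate the cotransporters, switching NKCC1 on and KCC proteins off. These steps act on proteins, whereas the values below are RNA levels.

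Total counts per library ranged from 15118843 to 19729783, with a median of 16413097. Levels are CPM, counts relative to the library total after scaling with TMM factors, and fold changes are on the log2 scale, tested in edgeR by quasi-likelihood, with p-values adjusted by the Benjamini-Hochberg method over all 16325 genes and called under 0.05. The libraries differed in how evenly genes were covered. The median share of a gene's exon counts that lay in its 5′ part, the exon blocks before the middle of their order,, over 4927 genes, ranged from 9.87% to 24.1% at GD45, from 15.3% to 27.2% at GD60 and from 16.6% to 28.8% at GD90. Male GD45 replicate 17 was lowest and its levels often lay apart from those of the other GD45 libraries, so results that turned on it are given with and without it. The brain markers were present as labelled. Summed CPM of 7 neuron markers lay between 2580 and 3410 at GD45 and between 5580 and 6190 at GD90, and 6 of the 7 rose between those days. Progenitor markers fell (6 of 6) and astrocyte (6 of 6) and oligodendrocyte markers (5 of 5) rose. In a whole brain, fewer cells of a type and less RNA per cell cannot be told apart.

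The SLC12A5 gene lies on chromosome 17 (Sscrofa11.1, chr17:48191988-48231294, plus strand). Its first annotated exon starts the long form of KCC2. SLC12A2 (chr2:131016430-131109305, plus strand) has a 48-base coding exon near its 3′ end. These stretches are shown because forms of the cotransporters differ by them, and their counts are given further on. Capitals mark the start codon in the SLC12A5 stretch and the exon itself in the SLC12A2 stretch, which is shown with 10 intron bases on each side.
SLC12A5, first exon, coding part, chr17:48192159-48192279: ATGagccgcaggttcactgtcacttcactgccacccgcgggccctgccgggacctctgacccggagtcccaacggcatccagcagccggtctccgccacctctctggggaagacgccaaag
SLC12A2, 48-base exon, chr2:131098081-131098128: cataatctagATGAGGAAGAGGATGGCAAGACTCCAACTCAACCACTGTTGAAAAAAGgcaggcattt

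SLC12A5 rose throughout, and more than any other of the 8 genes. At GD45 its level was lowest at 80.8 CPM, with a median of 147 CPM and a highest value of 170 CPM. At GD60 the lowest, median and highest values were 183, 219 and 252 CPM, and at GD90 they were 366, 495 and 519 CPM. No library of a later day fell within the range of an earlier day. The level rose by 0.64 on the log2 scale from GD45 to GD60 (SE 0.15, 1.56-fold, adjusted p = 0.0062), by 1.08 from GD60 to GD90 (SE 0.15, 2.11-fold, adjusted p = 2.03e-05) and by 1.72 from GD45 to GD90 (SE 0.15, 3.29-fold, adjusted p = 5.21e-08). The call between GD45 and GD60 was made in 30 of 31 alternative settings. It was lost when only exon counts of the 3′ part were used, where the log2 change was 0.87 with an adjusted p of 0.0587 (range over the alternatives 0.000203 to 0.0587). Both later calls were made in all 31.

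SLC12A2 was expressed at a much lower level and changed less. Its lowest, median and highest values were 11.4, 18.7 and 24.1 CPM at GD45. They were 15.8, 21.9 and 26.1 CPM at GD60 and 21.5, 24.9 and 35.5 CPM at GD90. The ranges of the days overlapped in every comparison. The rise of 0.51 from GD45 to GD90 passed the test (SE 0.15, 1.42-fold, adjusted p = 0.00917), whereas the differences of 0.16 from GD45 to GD60 (SE 0.15, adjusted p = 0.522) and 0.35 from GD60 to GD90 (SE 0.15, adjusted p = 0.0762) did not. The rise from GD45 to GD90 was no longer called when each library's share of counts in the 5′ part entered the fit, where the log2 difference was 0.29 with an adjusted p of 0.0874 (range over 31 alternatives 0.00223 to 0.0874). From exon counts the rise was larger and was called, at 1.04 with the 3′ part (adjusted p = 0.0403) and 1.20 with the 5′ part (adjusted p = 0.038). These exon counts were sparse, 704 over the 18 libraries, which is 10.8% of the gene counts of SLC12A2. The difference from GD60 to GD90 was called in 5 of 31 alternatives, which were the length trend removed, only the libraries compared, without the GD45 litter of 8 fetuses, without male GD45 replicate 17 (log2 change 0.35, adjusted p = 0.0128) and without male GD60 replicate 4 (0.43, adjusted p = 0.0375). The adjusted p ranged from 0.0128 to 0.36 over the 31.

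SLC12A7 fell. At GD45 the lowest, median and highest values were 66.9, 72.3 and 112 CPM, and at GD60 they were 43.3, 70.9 and 85.5 CPM. The GD90 libraries, at 30.6, 36.4 and 41.9 CPM, all lay under every library of the earlier days. The level fell by 0.91 on the log2 scale from GD60 to GD90 (SE 0.16, adjusted p = 0.000179) and by 1.15 from GD45 to GD90 (SE 0.16, adjusted p = 9.38e-06), and both falls were called in all 31 alternatives. Between GD45 and GD60 the difference was -0.24 (SE 0.15, adjusted p = 0.324). Markers of several cell types moved the same way. From GD45 to GD90, 6 of 6 progenitor markers and 3 of 4 erythroid markers fell, and most of those of the choroid plexus fell too. The summed CPM of 6 choroid plexus markers ranged from 950 to 1830 at GD45, from 676 to 1210 at GD60 and from 422 to 983 at GD90, 4 of the 6 fell and 1 rose from GD45 to GD90, and none was at 0 in all libraries of a day. Male GD45 replicate 17 had the highest value at GD45 both of this sum and of SLC12A7. It also had the highest GD45 sums of progenitor, microglia, endothelium and erythroid markers. The later days went the other way. The highest choroid plexus sums were in female GD60 replicate 15 and female GD90 replicate 2, which had the lowest SLC12A7 of their days (43.3 and 30.6 CPM). The part of choroid plexus, or of any other cell type, in the SLC12A7 levels was not tested. Some SLC12A7 exon sequence is shared with an unnamed gene annotated on the opposite strand, and since the counting options for strand are not stated, reads of the 2 genes cannot be told apart there.

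**Figure D1:**
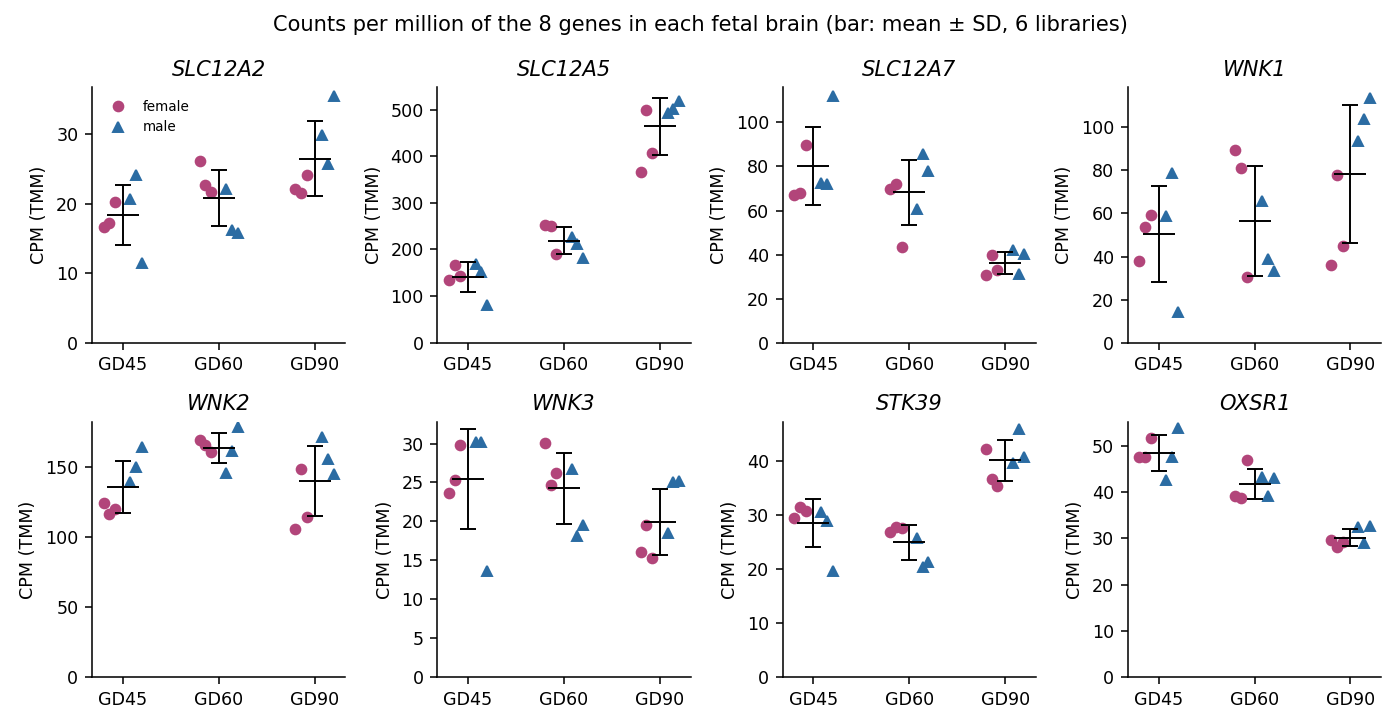
CPM (TMM-scaled, y axes from 0) of the 8 genes in each of 18 fetal brain libraries by gestation day, with circles for females, triangles for males, and black bars for the mean ± SD of 6 libraries. SLC12A5 at GD90 lies between 366 and 519 CPM, above all earlier libraries, while SLC12A7 and OXSR1 at GD90 lie under all earlier libraries and WNK1 spreads widely at each day.

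The ratio of SLC12A5 to SLC12A2 RNA was computed in each library. It is taken over all cells of a brain, whose cell type markers shifted between days. It therefore does not give the balance of chloride export over import in any cell type. At GD45 the CPM ratio was 8.07, 9.66 and 7.04 in the females (replicates 12, 13 and 18) and 8.24, 6.26 and 7.07 in the males (replicates 11, 14 and 17). At GD60 it was 9.65, 11.0 and 8.82 in the females (replicates 3, 5 and 15) and 10.3, 13.1 and 11.6 in the males (replicates 4, 6 and 16). At GD90 it was 16.6, 23.1 and 16.9 in the females (replicates 2, 7 and 9) and 16.5, 19.5 and 14.6 in the males (replicates 1, 8 and 10). All GD90 ratios lay above all earlier ones, and the GD45 and GD60 ranges overlapped. The mean ratio was 7.72 ± 1.20 (SD, n = 6) at GD45, 10.7 ± 1.51 (SD, n = 6) at GD60 and 17.9 ± 3.00 (SD, n = 6) at GD90.

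On the log2 scale the ratio was higher by 0.48 at GD60 than at GD45 (1.39-fold, exact two-sided permutation test, p = 0.00649, adjusted over the 3 day comparisons 0.00649). It was higher by 0.73 at GD90 than at GD60 (1.66-fold, exact permutation p = 0.00216, adjusted 0.00325) and by 1.21 at GD90 than at GD45 (2.31-fold, exact permutation p = 0.00216, adjusted 0.00325). With 6 libraries against 6 the smallest p the test can give is 0.00216. This test takes the 2 fetuses of a litter as independent, and with the mean of each litter, 3 against 3, the differences were of the same size and the adjusted p was 0.1 in each comparison, the smallest such a test can give. Scaled for gene length, as FPKM (CPM per kilobase of gene length), the mean ratio was 7.45 at GD45, 10.4 at GD60 and 17.2 at GD90, so SLC12A5 RNA exceeded SLC12A2 RNA already at GD45. Among the 9 libraries whose 5′ share lay between 15% and 22%, the log2 ratio was higher by 0.39, 0.63 and 1.02 in the same 3 comparisons, with 2 to 4 libraries a day (exact permutation, adjusted p = 0.114 in each, where the samples are too few to pass). The ratio also held its direction in each sex, with a GD90 to GD45 difference of 1.19 in females and 1.23 in males, where 3 against 3 cannot give a p under 0.1. Computed from exon counts in place of gene counts, the 2 shorter steps did not pass the test (exact permutation, adjusted p = 0.146 and 0.292, within ranges over the alternatives of 0.00433 to 0.3 and 0.00325 to 0.292). SLC12A2 had only 704 exon counts in all 18 libraries.

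Because the neuron markers rose too, SLC12A5 was also set against them. The log2 CPM of SLC12A5 minus the mean log2 CPM of 7 neuron markers (RBFOX3, SNAP25, SYT1, STMN2, SYN1, MAP2 and NEFL) was -0.55 ± 0.063 (SD, n = 6) at GD45, -0.36 ± 0.13 (SD, n = 6) at GD60 and -0.24 ± 0.082 (SD, n = 6) at GD90. It ran from -0.61 to -0.46 at GD45, from -0.57 to -0.23 at GD60 and from -0.36 to -0.14 at GD90, so the first and last days did not overlap. The difference was 0.19 from GD45 to GD60 (exact permutation p = 0.013, adjusted 0.0195), 0.12 from GD60 to GD90 (exact permutation p = 0.0866, adjusted 0.0866) and 0.31 from GD45 to GD90 (exact permutation p = 0.00216, adjusted 0.00649). In the like-coverage libraries these differences were 0.11, 0.062 and 0.17. From exon counts summed per gene, those from GD45 to GD60 and from GD45 to GD90 were larger, at 0.57 and 0.65 (exact permutation, adjusted p = 0.0195 in each, within ranges over the alternatives of 0.00325 to 0.45 and 0.00325 to 0.3). In gene counts the difference was 0.31, beside a log2 rise of 1.72 for SLC12A5 itself. The size of the difference depends on the markers chosen, and their mean is not a measured share of neurons. The part of neuron number in the rise was not tested. From GD45 to GD90, SYN1 (log2 change 1.96) and SYT1 (1.77) rose more than SLC12A5. The other neuron markers rose less, from 0.555 for STMN2 to 1.42 for NEFL, and MAP2 was not called by edgeR (1.24, SE 0.53, adjusted p = 0.0544).

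**Figure D2:**
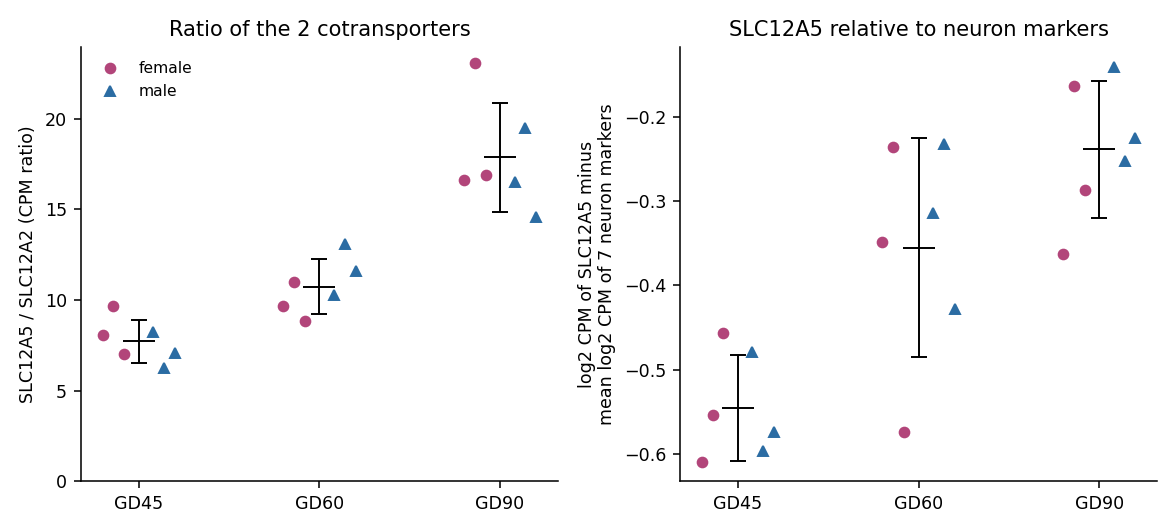
Left, the ratio of SLC12A5 to SLC12A2 CPM in each library by gestation day (y axis from 0), and right, log2 CPM of SLC12A5 minus the mean log2 CPM of 7 neuron markers. Circles are females, triangles males and black bars the mean ± SD of 6 libraries; the mean ratio goes from 7.72 at GD45 to 17.9 at GD90, and the right-hand value from -0.55 to -0.24.

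Of the WNK kinases, WNK2, a form known mainly from brain, was the most abundant. Its lowest, median and highest values were 116, 132 and 164 CPM at GD45, 146, 164 and 178 CPM at GD60 and 106, 146 and 171 CPM at GD90. It was thus highest at GD60, with overlapping ranges. WNK2 rose by 0.28 from GD45 to GD60 (SE 0.088, 1.21-fold, adjusted p = 0.038) and fell by 0.24 on the log2 scale from GD60 to GD90 (SE 0.088, adjusted p = 0.04), and GD90 and GD45 differed by 0.044 (SE 0.088, adjusted p = 0.689). Both calls lay close to the threshold. The rise was lost in 16 of 31 alternatives, in 10 of which 1 library was left out (adjusted p 0.0185 to 0.364), and the fall in 11 of 31 (adjusted p 0.00566 to 0.642). With litter as a replicate block the rise was not called (adjusted p = 0.0531).

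WNK1, the widely expressed kinase of the family, varied most between libraries of the same day. At GD45 the lowest, median and highest values were 14.2, 56.2 and 79.0 CPM. The corresponding values were 30.7, 52.4 and 89.4 CPM at GD60 and 36.0, 85.8 and 114 CPM at GD90. No day comparison passed the test, with log2 differences of 0.14 (adjusted p = 0.826), 0.41 (adjusted p = 0.344) and 0.55 (adjusted p = 0.173), each with an SE of 0.34. Its level moved with the library's 5′ share. The 7 libraries with a share of 24.1% or more had 78.0 to 114 CPM, those with 21.5% or less had 14.2 to 65.7 CPM, and each of these sets held libraries of all 3 days. Other members moved with the share too. The mean of each group of sex and day was removed, and Pearson r of log2 CPM with the share was computed. It was 0.972 for WNK1, 0.899 for SLC12A5, 0.736 for WNK3 and 0.666 for SLC12A2. For the others it was 0.517 (STK39), 0.0941 (WNK2), 0.0759 (SLC12A7) and -0.668 (OXSR1). With the share in the fit, the WNK1 difference between GD90 and GD45 was -0.28 (adjusted p = 0.0449, range over the alternatives 0.0449 to 0.411), a reversal of sign.

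WNK3, another neuronal member, whose gene is on the X chromosome, had lowest, median and highest values of 13.7, 27.5 and 30.2 CPM at GD45, 18.2, 25.4 and 30.1 CPM at GD60 and 15.3, 19.0 and 25.1 CPM at GD90. None of its day comparisons passed the test (log2 differences -0.081, -0.29 and -0.37, SE 0.17 each, adjusted p = 0.795, 0.188 and 0.0744). The lowest GD45 value was male GD45 replicate 17. Without that library, the log2 difference from GD45 to GD90 was -0.52 with an adjusted p of 0.0015, and 5 of 31 alternatives called it (adjusted p 0.000766 to 0.382).

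STK39 and OXSR1, the paired kinases downstream of the WNKs, moved in opposite directions. STK39 had lowest, median and highest values of 19.7, 30.1 and 31.6 CPM at GD45, 20.4, 26.4 and 27.8 CPM at GD60 and 35.5, 40.3 and 46.0 CPM at GD90. Every GD90 library lay above every earlier one. STK39 rose by 0.69 from GD60 to GD90 (SE 0.11, 1.61-fold, adjusted p = 6.34e-05) and by 0.49 from GD45 to GD90 (SE 0.11, 1.41-fold, adjusted p = 0.000722). From GD45 to GD60 the difference was -0.19 (SE 0.11, adjusted p = 0.23), and without male GD45 replicate 17 it was -0.29 and called (adjusted p = 0.0182, range over the alternatives 0.0182 to 0.462).

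OXSR1 had lowest, median and highest values of 42.7, 47.6 and 53.9 CPM at GD45, 38.7, 41.1 and 46.9 CPM at GD60 and 28.04, 29.5 and 32.6 CPM at GD90, so that all GD90 libraries lay under all earlier ones. It fell by 0.47 on the log2 scale from GD60 to GD90 (SE 0.082, adjusted p = 0.000214) and by 0.69 from GD45 to GD90 (SE 0.082, adjusted p = 2.16e-06). From GD45 to GD60 the difference of -0.22 did not pass (SE 0.081, adjusted p = 0.0784), although 3 of 31 alternatives called it (adjusted p 0.0305 to 0.888). For both kinases the calls between GD45 and GD90, and for OXSR1 also that between GD60 and GD90, were lost when exon counts of the 5′ or of the 3′ part alone were used. The log2 difference from GD45 to GD90 was close to the 0.49 of gene counts for STK39, at 0.51 with the 5′ part and 0.53 with the 3′ part (adjusted p = 0.153 and 0.255, range over the alternatives 1.55e-05 to 0.255). For OXSR1 it was 0.28 with the 5′ part and -0.040 with the 3′ part (adjusted p = 0.543 and 0.953, range over the alternatives 3.25e-15 to 0.953), and from GD60 to GD90 its sign turned to 0.46 and 0.094 (adjusted p = 0.381 and 0.905, range over the alternatives 3.42e-07 to 0.905). The exon table held only 1117 counts for STK39 and 677 for OXSR1, which is 11.9% and 5.61% of their gene counts.

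Counted together, 2 of the 8 genes were called from GD45 to GD60, both higher at the later day, where 16.7% of all genes tested were called (9.35% higher and 7.37% lower). From GD60 to GD90, 5 of 8 were called, 2 higher and 3 lower, against 42.4% of all genes (21.4% higher and 20.9% lower). From GD45 to GD90, 5 of 8 were called, 3 higher and 2 lower, which is near the 57.5% of all genes (28.3% higher and 29.3% lower). The median log2 change of the 8 genes was 0.028, 0.056 and 0.27 in these comparisons, beside -0.0070, -0.011 and -0.026 over all genes. Genes whose 6 libraries of a day lay wholly beyond the 6 of the other numbered 1 of 8 from GD45 to GD60 (8.47% of all genes), 4 of 8 from GD60 to GD90 (24.1%) and 4 of 8 from GD45 to GD90 (33.8%).

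**Figure D3:**
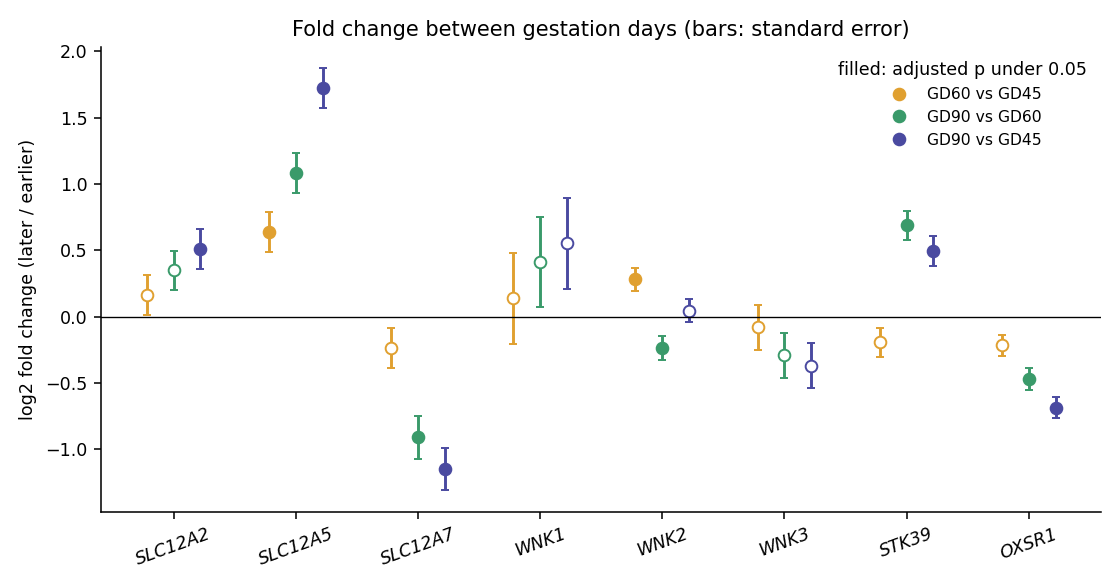
Log2 fold change (later over earlier day, both sexes averaged) of the 8 genes in 3 comparisons of gestation days that share libraries, with bars for the standard error, and filled points for an adjusted p under 0.05. SLC12A5 lies furthest above 0, at 1.72 from GD45 to GD90, and SLC12A7 furthest under it, at -1.15.

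Scaled for gene length, the order of the 8 genes changed between days. At GD45 WNK2 and SLC12A5 had nearly equal mean FPKM, 19.2 ± 2.65 and 19.1 ± 4.39 (SD, n = 6), and overlapped, and both stood above OXSR1 at 9.62 ± 0.769. OXSR1, SLC12A7 (8.54), WNK1 (6.41), STK39 (3.798), SLC12A2 (2.59) and WNK3 (2.35) followed, each overlapping the next. At GD60 SLC12A5 was first with 29.7 ± 3.97 FPKM and WNK2 second with 23.1 ± 1.52, still overlapping. At GD90 SLC12A5, at 63.0 ± 8.38 FPKM, lay above WNK2, at 19.8 ± 3.55, in every library. WNK1 (9.94), OXSR1 (5.98), STK39 (5.35), SLC12A7 (3.85), SLC12A2 (3.72) and WNK3 (1.84) came next, and in this order WNK1 overlapped OXSR1, OXSR1 overlapped STK39 and SLC12A7 overlapped SLC12A2. OXSR1 FPKM was above STK39 FPKM in every library at GD45 and GD60, and at GD90 their ranges overlapped.

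Sex was compared at each day. None of the 8 genes was called between males and females at GD45, GD60 or GD90, where 0.0919%, 0.098% and 0.098% of all genes were called by edgeR. At an unadjusted p under 0.05 there were 1, 0 and 1 members, beside 423, 784 and 2213 of all 16325 genes. DESeq2 called 0 members at each day. The one gene past the unadjusted threshold at GD45 and at GD90 was WNK2. At GD45 its values were 116, 120 and 124 CPM in females and 140, 150 and 164 CPM in males, without overlap (log2 male over female 0.33, SE 0.13, adjusted p = 0.995). At GD60 they were 161, 166 and 169 CPM in females and 146, 162 and 178 CPM in males (log2 -0.030, SE 0.12, adjusted p = 0.948). At GD90 they were 106, 114 and 148 CPM in females and 145, 156 and 171 CPM in males (log2 0.36, SE 0.13, adjusted p = 0.35). A difference that misses the threshold in 3 against 3 fetuses does not show that the sexes were alike.

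Within females, 1 of the 8 genes was called from GD45 to GD60 (WNK2, log2 change 0.46, SE 0.13, adjusted p = 0.034), beside 7.22% of all genes. Within males none was called by edgeR or by DESeq2, and the share called over all genes was 5.61%. An unadjusted p under 0.05 was reached by 1 member, and by 2960 of all 16325 genes. From GD60 to GD90, 5 of 8 were called in females (27.1% of all genes) and 5 of 8 in males (34.5%). SLC12A5, SLC12A7, STK39 and OXSR1 were called in both sexes. WNK2 was called in females alone (log2 change -0.43, SE 0.13, adjusted p = 0.0167), and SLC12A2 in males alone (log2 change 0.75, SE 0.22, adjusted p = 0.0134). SLC12A2 was at 21.7, 22.7 and 26.1 CPM in GD60 females and 21.5, 22.1 and 24.1 CPM in GD90 females, while GD60 males were at 15.8, 16.2 and 22.1 CPM and GD90 males at 25.7, 29.9 and 35.5 CPM. The test of the difference itself, the interaction of sex and period, called none of the 8 genes by edgeR or DESeq2 in either period, as edgeR called 0% of all genes. Without male GD45 replicate 17, a library of neither day compared, it called 2 of the 8 for GD60 to GD90. The share of all genes called without that library was not computed. For GD60 to GD90, 4 of the 8 had an unadjusted p under 0.05, as had 3232 of all 16325 genes. The 4 members were SLC12A2 (log2 interaction 0.81, SE 0.30, adjusted p = 0.21), WNK1 (1.51, SE 0.67, adjusted p = 0.239), WNK2 (0.39, SE 0.18, adjusted p = 0.243) and WNK3 (0.76, SE 0.34, adjusted p = 0.241). For GD45 to GD60 none of the 8 reached that unadjusted level, beside 333 of all genes. Coverage differed between the sexes at GD90. The 5′ share was 16.6%, 18.2% and 25.6% in females and 27.8%, 28.6% and 28.8% in males. With that share in the fit, from GD60 to GD90 3 of the 8 genes were called in males and 6 in females, and the interaction again called 0. The share of all genes called in these fits was not computed, so nothing about the members or sex is read from these counts.

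Exon counts were also read along the genes. The median 5′ share of the libraries was 19% at GD45 and 26.7% at GD90. A change at a position along a gene therefore cannot be told apart from this shift in coverage. Of 96 member exons tested, 37 differed between GD90 and GD45, beside 30.8% of all exons. For SLC12A5 all 23 tested exons rose, with log2 changes from 0.98 in the last exon (chr17:48227753-48231294) to 3.42 in exon 3 (chr17:48205500-48205631) and a median of 2.20. SLC12A7 had 9 of 19 tested exons called, all lower at GD90, with log2 changes from -1.81 to -0.20 over the tested exons. WNK1 had 1 of 18 called. Its 5′ exons had positive differences, such as 1.00 for exon 1, and the last exon, the one with the highest counts, was at a mean of 43.3 CPM at GD45, 37.0 CPM at GD60 and 38.1 CPM at GD90 (log2 difference -0.18, adjusted p = 0.524). WNK2 had 3 of 27 called, 2 higher and 1 lower, with differences running from positive in 5′ exons to negative in 3′ exons. WNK3 had 1 of 4 called, its last exon, which fell by 0.72 on the log2 scale (adjusted p = 0.00565). STK39 and OXSR1 had 3 and 2 exons tested, none of them called, and no SLC12A2 exon had enough counts.

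A change in usage, that is, in an exon's share of its gene, was called for 1 of the 96 exons, beside 1.09% of all exons tested. This was exon 2 of WNK2 (chr3:42712172-42712842), with a usage change of 0.79 on the log2 scale and an adjusted p of 0.0432. The exon lies near the 5′ end. The median 5′ share of WNK2 itself was 21.8% at GD45 and 38.4% at GD90, and the part of coverage in the usage change was not tested. The call did not hold when exons needed 20 counts in 6 libraries, without TMM factors or without the GD45 litter of 8 fetuses. The first exon of SLC12A5 had 22 counts at GD45, 67 at GD60 and 85 at GD90, summed over 6 libraries a day. Its other annotated first exons, which overlap one another within chr17:48199188-48199651, had 0 counts at every day. The forms of SLC12A5 therefore cannot be compared by these counts. The 48-base exon of SLC12A2 had 3, 4 and 3 counts at the 3 days, too few to compare.

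**Figure D4:**
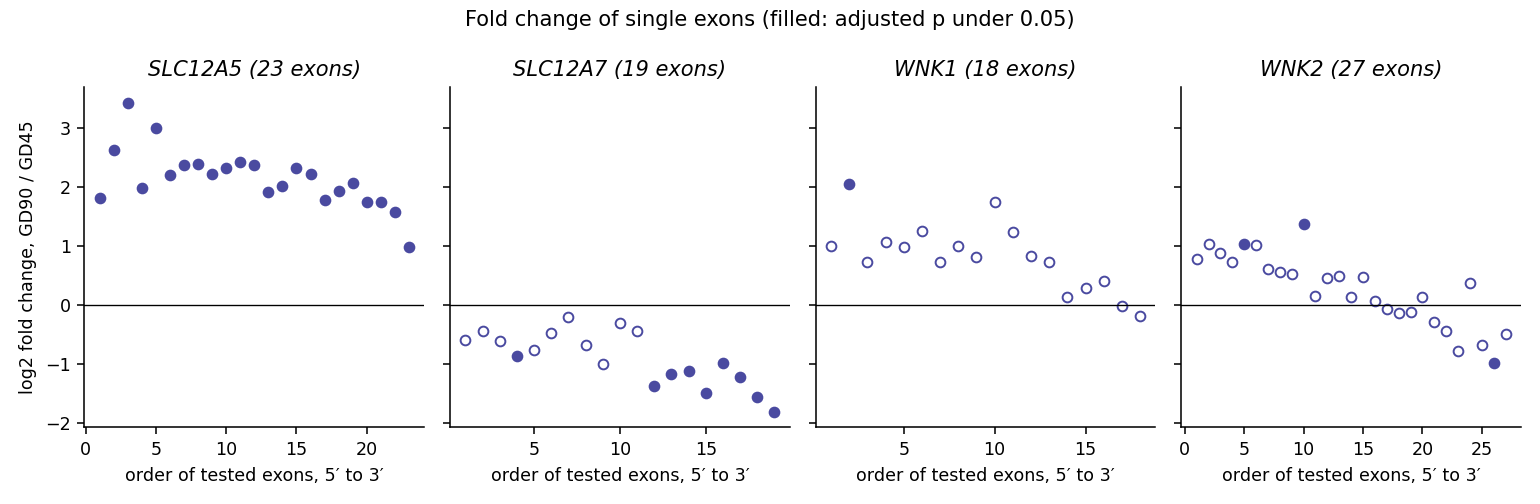
Log2 fold change from GD45 to GD90 of single exons of SLC12A5, SLC12A7, WNK1 and WNK2, in 5′ to 3′ order of the tested exons, with filled points for an adjusted p under 0.05. All 23 SLC12A5 exons are above 0, between 0.98 and 3.42, the SLC12A7 exons are below it, and WNK1 and WNK2 run from positive to near 0 or negative values towards the 3′ end.

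Since 4 of the 6 GD90 libraries had a higher 5′ share than any GD45 library, the members were compared at like coverage. GD90 females 2 and 9, with 5′ shares of 16.6% and 18.2%, had SLC12A5 at 366 and 408 CPM, while the GD45 libraries with shares from 14.6% to 24.1% had 135 to 170 CPM. In the like-coverage libraries SLC12A7 was at 67.9 to 89.8 CPM at GD45 and 30.6 to 32.9 CPM at GD90, OXSR1 at 42.7 to 51.6 and 29.2 to 29.7 CPM, and STK39 at 30.6 to 31.6 and 35.5 to 42.3 CPM, none of them overlapping. SLC12A2 was at 17.2 to 20.6 CPM at GD45 and at 22.1 and 24.1 CPM at GD90. WNK1 was at 53.7 to 59.5 CPM at GD45 and at 36.0 and 44.7 CPM at GD90, WNK2 at 116 to 140 and 106 to 114 CPM, and WNK3 at 25.3 to 30.2 and 15.3 to 16.1 CPM. In this set WNK1 and WNK2 were thus lower at GD90 without overlap, whereas over all libraries the WNK1 mean was higher at GD90 and WNK2 differed by 0.044 on the log2 scale. Every member lay without overlap between GD45 and GD90 in this set, which held only 3 GD45 and 2 GD90 libraries. So few libraries often separate by chance, and the share of all genes doing so was not computed. Both GD90 libraries were female, while the GD45 ones were of both sexes. With the 5′ share in the fit, SLC12A5 rose by 1.40 from GD45 to GD90 (adjusted p = 3.81e-10, range over the alternatives 1.22e-27 to 1.69e-05).

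**Figure D5:**
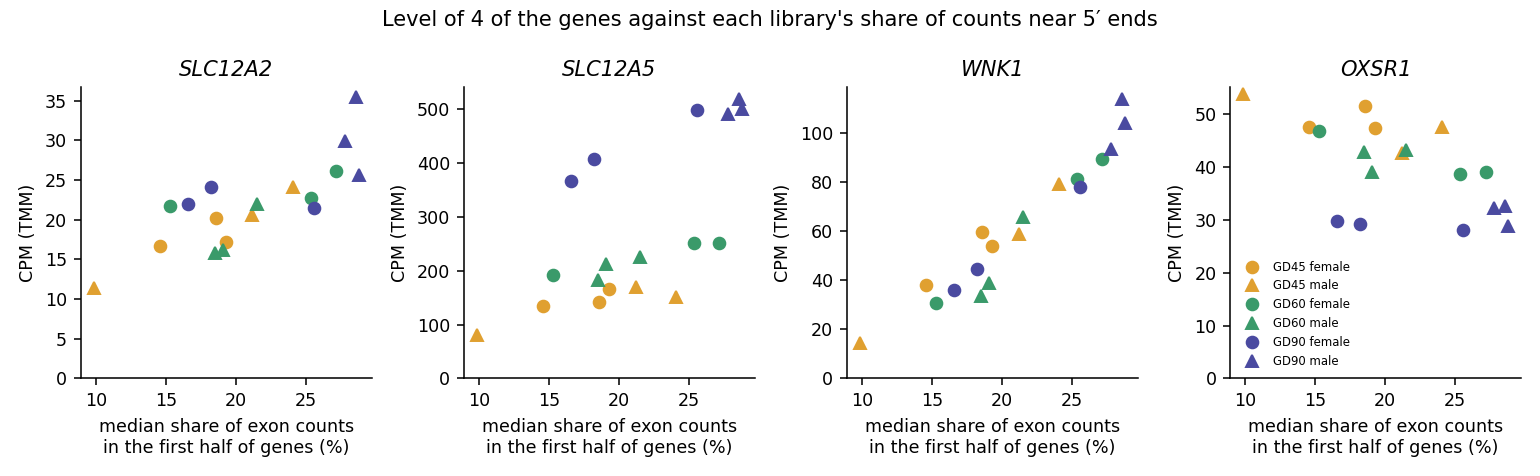
CPM of SLC12A2, SLC12A5, WNK1 and OXSR1 (y axes from 0) against each library's median share of exon counts in the 5′ part of genes, in percent, with colour for the day, circles for females and triangles for males. WNK1 follows the share across all 3 days, from 14.2 CPM at 9.87% to 114 CPM at 28.6%. The GD90 libraries of SLC12A5 lie above, and those of OXSR1 below, all earlier libraries. Within groups of sex and day SLC12A5 also moved with the share (Pearson r 0.899, beside 0.972 for WNK1).

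The other genes of the pathway, on a list of further SLC12 carriers, kinase partners, KCC2 binders and other chloride genes, numbered 27 in the tested set. From GD45 to GD60, 2 were called, both higher, from GD60 to GD90 15 (9 higher, 6 lower) and from GD45 to GD90 17 (10 higher, 7 lower), with median log2 changes of 0.11, 0.089 and 0.19. Over all genes tested the shares called were 16.7%, 42.4% and 57.5%, and nothing particular to the list is read from its counts. WNK4 and EPB41L1, also on the list, had no row under those symbols.

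Among the carriers, SLC12A4 (KCC1) rose by 1.17 from GD45 to GD90 (SE 0.12, adjusted p = 2.29e-07), from 15.6 to 19.7 CPM at GD45 to 32.0 to 45.5 CPM at GD90. SLC12A8 rose by 2.03 (SE 0.29, adjusted p = 1.32e-05) from 0.627 to 2.07 CPM to 3.64 to 8.35 CPM, and SLC12A9 fell by 0.58 on the log2 scale (SE 0.15, adjusted p = 0.00422). The renal carriers SLC12A1 (NKCC2) and SLC12A3 (NCC) stayed under 2.2 CPM, and SLC12A1 was called, with a log2 rise of 0.94 (SE 0.31, adjusted p = 0.0172), while SLC12A3 was not (0.94, SE 0.39, adjusted p = 0.0503).

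The largest change on the list was that of CA7, a carbonic anhydrase that supplies neurons with bicarbonate. It was at 0 to 0.369 CPM at GD45, 0.0627 to 0.627 CPM at GD60 and 3.87 to 6.71 CPM at GD90, a fitted log2 rise of 4.79 (SE 0.41, adjusted p = 3.51e-08). SLC4A10, a sodium-dependent bicarbonate transporter of neurons, rose by 1.25 (SE 0.18, adjusted p = 1.28e-05) and SLC4A3, an anion exchanger, by 0.73 (SE 0.082, adjusted p = 1.13e-06). CLCN3, an endosomal chloride-proton exchanger, rose by 1.13 (SE 0.20, adjusted p = 0.000176). Among kinase partners, TSC22D4 rose by 1.21 (SE 0.12, adjusted p = 2.82e-07) and KLHL2, a substrate adaptor of the ubiquitin ligase that degrades WNK kinases, by 0.64 (SE 0.14, adjusted p = 0.000757). NEDD4L, a ubiquitin ligase, fell by 0.42 on the log2 scale (SE 0.078, adjusted p = 0.00021), and SLC4A2, another anion exchanger, fell by 0.43 (SE 0.15, adjusted p = 0.0251).

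The genes whose log2 CPM followed SLC12A5 most closely over the 18 libraries included SLC36A1 (Pearson r 0.991), MAP7 (0.988), APBA1 (0.987) and DIRAS2 (0.987). Those closest to SLC12A2 were LRRK2 (0.950), FSD1L (0.944), OPA1 (0.939), ZCCHC2 (0.937) and ZDHHC21 (0.936). These values are descriptions. The 18 points share gestation day and coverage along genes, both of which differed between libraries.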

How the data were processed

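RNA of 18 whole fetal brains was sequenced by the authors, who per the labels and the methods enriched mRNA with oligo(dT) beads, trimmed reads with Trimmomatic, aligned them with HISAT2 to Sscrofa11.1 and ran featureCounts with the Ensembl gene models. The deposited gene and exon tables hold raw read counts without normalization, and the gene table also gives gene lengths. Options for strand and for shared reads were not given in the sources used here. The exon table held from 5.61% (OXSR1) to 96.6% (WNK3) of a member's gene counts. A transcript table was not used. The 22 columns of counts belong to 18 libraries, and 4 libraries with 2 runs were summed.

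Groups came from the labelled sex and gestation day. Counts were filtered with filterByExpr, scaled with TMM factors and tested with edgeR 4.0.16 (R 4.3.3) in 1 quasi-likelihood fit of the 6 groups over all 18 libraries, with sexes averaged for comparisons of days. SE is the log2 change divided by the square root of F. FPKM was computed here from CPM and gene length. CPM and FPKM are not counts of the authors. Exons were tested in the same way, and usage with diffSpliceDGE. Ratios were compared by exact two-sided permutation tests. The 5′ share is the percent of a gene's exon counts in those of its merged exon blocks that precede the middle of their order. Sequences are from the RefSeq copy of Sscrofa11.1. The tests were first run on simulated counts with known changes. Alternatives used DESeq2 1.42.0, limma 3.58.1, other filters and scalings, and left out each library. The 8 genes and all lists were chosen with earlier results of these data known. The genes named are all 8 members, the SLC12 carriers, up to 8 other pathway genes with the largest change from GD45 to GD90, and the 5 genes most like SLC12A5 and SLC12A2, some of which are not reported here. Correlation of deviations between fetuses of 1 litter ranged from -0.0932 to 0.424. Between a female and a male of different litters of the same day it ranged from -0.412 to 0.201 (median -0.131, 18 pairs). The consensus correlation of fetuses of 1 litter, fitted over all genes tested, was 0.104. Litter was kept as an alternative only. The main tests take littermates as independent, so their SEs and p-values do not allow for likeness within a litter. Fetuses are separate animals, 2 to a litter. Counting limits take reads as independent molecules and cover counting error only.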

Additional observations from a re-analysis of the deposited data

Results flagged for a closer look

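STK39 in male GD45 replicate 17 was at 19.7 CPM, while the next lowest of the 6 GD45 libraries was at 29.0 CPM. The gap was 0.778 of the range of the 6 values, above the 95% critical value of Dixon's test for 6 samples. Of 30 sets of 6 libraries examined this way (the 8 genes, the SLC12A5 to SLC12A2 ratio and SLC12A5 relative to neuron markers at 3 days), 1 was set apart, and chance alone sets apart about 1 in 20. The same library was the lowest of its day for SLC12A2, SLC12A5, WNK1 and WNK3 and the highest for SLC12A7, WNK2 and OXSR1, and had the lowest 5′ share, 9.87%. The part of that share in its levels was not tested.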

How the results depend on the processing

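Each fold change was recomputed in 31 alternatives, 18 of which left out 1 library. Alternatives built on the 5′ and 3′ parts of genes, on the 5′ share and on libraries of like coverage were chosen after seeing the data. The calls of SLC12A5 and SLC12A7 from GD60 to GD90 and from GD45 to GD90, and that of STK39 from GD60 to GD90, were made in all of them. Where a cause is not named, the cause was not tested.

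The count of 2 members called from GD45 to GD60 became 1 with no filter on low counts, with the gene length trend removed, with litter as a replicate block, with counts summed by litter and with exon counts of the 5′ part, and 0 with those of the 3′ part, and ranged from 1 to 3 when 1 library was left out. Over all genes, 2730 of 16325 were called in the main fit. The count was 2334 of 26480 with no filter, 3123 of 16325 without the length trend and 2364 of 16325 with the litter block. It was 1974 of 17003 with sums by litter, 501 of 11390 with the 5′ part and 1420 of 14149 with the 3′ part. The count of 5 members from GD60 to GD90 became 3 with the 5′ part and ranged from 4 to 6 without 1 library, and that of 5 from GD45 to GD90 became 3 with either part (5 to 6 without 1 library). Over all genes, the 5′ part called 1970 of 11390 from GD60 to GD90, beside 6917 of 16325 in the main fit. From GD45 to GD90 the 5′ part called 4133 of 11390 and the 3′ part 6969 of 14149, beside 9395 of 16325. In females from GD45 to GD60 the count of 1 member became 2 with the likelihood ratio test, DESeq2, only the libraries compared or without the GD45 litter of 8, 3 with the 5′ share as a covariate and 0 with no filter (0 to 2 without 1 library). In males the count of 0 became 1 with the length trend removed or the covariate (0 to 1). From GD60 to GD90 the count in females ranged from 3 to 6 without 1 library, and in males it was 3 with the covariate and 4 to 6 without 1 library. Between the sexes at GD90 the count of 0 became 1 with only the libraries compared, and for the interaction from GD60 to GD90 it became 1 with only those libraries and 2 without the GD45 litter of 8 (0 to 2 without 1 library). Of the fits without 1 library, the one without male GD45 replicate 17 gave the 2. The litter block changed no other count of members. Within 1 sex, between the sexes and for the interaction, the share of all genes called was not computed in the alternatives.

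The log2 SLC12A5 to SLC12A2 ratio did not pass in these settings, given for GD60 over GD45 and GD90 over GD60: mean per litter 0.479 and 0.729, females 0.259 and 0.929, males 0.7 and 0.529, exon counts 0.522 and 0.309, 3′ part 0.608 and 0.465, 5′ part 0.745 and 0.43, like coverage 0.394 and 0.629. For GD90 over GD45 it did not pass by litter (1.21), in females (1.19), in males (1.23) and at like coverage (1.02). With 3 against 3 the test cannot pass. Leaving out 1 library gave 0.42 to 0.547, 0.651 to 0.789 and 1.13 to 1.28. SLC12A5 relative to neuron markers did not pass for GD60 over GD45 with the length trend removed (0.136), by litter (0.189), in females (0.154), in males (0.225) and at like coverage (0.11), nor for GD90 over GD45 by litter (0.306), in females (0.268), in males (0.344) and at like coverage (0.171). From GD60 to GD90 it ranged from 0.0728 to 0.141 without 1 library and passed without female GD60 replicate 5, male GD60 replicate 6 or female GD90 replicate 2 (adjusted p 0.039 to 0.0476 by the exact permutation test, within 0.039 to 0.658 over the alternatives).

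The 2 other pathway genes called from GD45 to GD60 became 5 with DESeq2 and 1 with no filter, only the libraries compared, sums by litter, or either part (1 to 5 without 1 library), and the 15 called from GD60 to GD90 became 6 with the 5′ part. Over all genes from GD45 to GD60, DESeq2 called 3371 of 16325, and the fit of only the libraries compared 1911 of 15894. For the other settings the counts over all genes are given above. The 1 exon of changed usage became 0 with the stricter filter, without TMM factors and without the GD45 litter of 8, and 0 to 2 without 1 library.

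Signs of differences that were not called reversed as follows. From GD45 to GD60, SLC12A7 was 0.155 with the 5′ part, WNK1 -0.0178 without the GD45 litter of 8, -0.279 with the covariate and -0.092 to 0.369 without 1 library, and WNK3 0.422 with the 5′ part and -0.236 to 0.00317 without 1 library. From GD45 to GD90, WNK1 was -0.279 with the covariate, WNK2 -0.058 with the length trend removed, -0.138 with the 3′ part and -0.036 to 0.0794 without 1 library, and WNK3 0.637 with the 5′ part. WNK3 from GD60 to GD90 was 0.216 with the 5′ part. The called falls of OXSR1 reversed on its sparse exon counts, at 0.0944 with the 3′ part and 0.458 with the first from GD60 to GD90, and at 0.281 with the 5′ part from GD45 to GD90.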
